A study of Mus musculus with 10 samples.

Results

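The respiratory chain subunits measured here are the proteins of complexes I to IV of the inner mitochondrial membrane, together with the pair of ATP synthase subunits that the mitochondrial genome encodes. They were taken by gene symbol from all 46983 genes of the count lists: protein-coding genes beginning with mt-, Ndufa, Ndufb, Ndufc, Ndufs or Ndufv and a number, Sdha to Sdhd, genes beginning with Uqcr, and Cox4 to Cox8 genes without Cox8b and Cox7a1. The rule gave 78 genes, 13 on the mitochondrial genome and 65 in the nucleus. Of the mitochondrial genes, 7 belong to complex I, 1 to complex III, 3 to complex IV and 2 to complex V, the ATP synthase. Of the nuclear genes, 35 belong to complex I, 4 to complex II, 8 to complex III and 18 to complex IV, where Ndufa4 and Ndufa4l2 were placed. Another 30 genes carry a matching symbol but are not protein-coding, namely 22 transfer RNA genes, 2 ribosomal RNA genes and 6 processed pseudogenes, and were left out.

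RNA came from right thoracic mammary fat pads of virgin female C57BL/6 mice at post-natal day 130. Mice in the control folic acid group (CFA, n = 5) had eaten a diet with 1 mg folic acid/kg and those in the high folic acid group (HFA, n = 5) a diet with 5 mg folic acid/kg, and both groups then ate the same maintenance diet for some weeks before the glands were taken. No genotype differed and no allele or transgene was used. The fat pad was excised whole, so each library mixed fat cells, epithelium, vessels and whatever muscle or lymph node came with it, and fewer cells of a type and less RNA per cell cannot be told apart in such a bulk sample. The labels do not say that each library is a separate mouse. The study's methods give the sequenced samples as a number of mice per diet group, and the p-values take each library as a separate mouse.

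The respiratory chain carries electrons from NADH and succinate to oxygen and pumps protons across the inner membrane, and the ATP synthase uses the returning protons to make ATP. Complex I oxidises NADH, complex II oxidises succinate, complex III passes electrons from ubiquinol to cytochrome c, and complex IV, cytochrome c oxidase, reduces oxygen to water. Complex II is encoded wholly in the nucleus, whereas the catalytic centre of complex IV is encoded wholly by mitochondrial DNA, and complexes I and III are built from both genomes. Brown fat, beige fat and muscle are rich in mitochondria, and white fat, the bulk of an adult virgin mammary gland, holds far fewer.

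Each library held between 7672199 and 14829291 reads counted on genes. HFA 5 stood apart, with a median correlation of 0.798 to the other libraries against 0.918 to 0.97 for the rest. The B and T cell markers summed to 629 CPM (counts scaled by TMM to a common library size) in CFA 2, 1500.2 in CFA 5 and 4142 in HFA 5, and to between 23.6 and 76.6 CPM in the other libraries. HFA 5 also held the least skeletal muscle RNA, with 864 CPM over 12 markers against 8402 to 64569 elsewhere. The fat cell markers were high in all 10 libraries, between 11790.5 and 21931 CPM over 8 genes. The epithelial markers lay between 380.4 and 2512 CPM over 10 genes. Other marker lists lay mostly on one side between the diets, although 0 markers passed the adjusted threshold. Of the 10 epithelial markers, 9 had lower fitted levels in HFA (median on the log2 scale -0.89), and 3 of the 10 had an unadjusted p under 0.05 (edgeR). Of 5 fibroblast markers 4 were lower, with a median of -0.71, and all 5 erythroid markers were higher, with a median of 0.76 and 4 at an unadjusted p under 0.05. HFA 4 had the lowest sum of the 6 macrophage markers, 116 CPM, against 303 to 864 CPM elsewhere. The part of these cell types in the members' values was not tested.

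Before any comparison of diets, the 13 mitochondrial genes split into those that carried the counts and those that hardly did. The genes mt-Co1, mt-Cytb, mt-Nd1, mt-Nd2, mt-Nd4, mt-Nd5 and mt-Nd6 held 99.8% or more of all mitochondrial counts in every library. Their mean levels per length ran from 3483 RPKM for mt-Nd6 to 20716 RPKM for mt-Co1. The other 6 lay between 0.164 RPKM for mt-Atp8 and 24.1 RPKM for mt-Co2, although the coding sequences are cut from long precursor RNAs, all but mt-Nd6 from those of the same strand.

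Most of the genes with few counts have annotated copies elsewhere in the genome. When each transcript was cut into every window of 75 bases, the length of a read, 99.5% of the windows of mt-Co2 were found exactly in the transcript of another gene. The share was 99.9% for mt-Co3, 99.5% for mt-Atp6, 98.7% for mt-Nd4l and 97.8% for mt-Nd3, each with an unprocessed pseudogene on chromosome 1 as the closest copy. It was 0% for mt-Cytb, mt-Nd1 and mt-Nd6, 1.66% for mt-Nd5 and 5.71% for mt-Nd2. mt-Co1 and mt-Nd4 lay between, with 39.8% and 61.5%, and still held 20716 and 5089.9 RPKM. With at most 2 mismatches allowed, the share was 82.5% for mt-Co1, with 70% in the pseudogene Gm13340 alone, and 61.5% for mt-Nd4. The levels of mt-Co1 and mt-Nd4 are thus uncertain as well.

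Bases 301 to 375 of mt-Co2 and mt-Cytb are shown to let the copies be seen letter by letter, each with the matching stretch of its closest pseudogene, 5′ to 3′ on the gene's own strand in GRCm38. The mt-Co2 stretch lies at chrM:7313-7387 and its copy in Gm28661 at chr1:24615191-24615265 on the minus strand. The mt-Cytb stretch lies at chrM:14445-14519 and its copy in Gm11410 at chr4:80004289-80004363. Capitals mark the bases that differ within a pair.
mt-Co2: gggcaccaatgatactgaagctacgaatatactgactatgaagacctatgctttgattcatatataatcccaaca
Gm28661: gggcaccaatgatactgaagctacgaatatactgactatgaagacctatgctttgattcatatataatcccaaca
mt-Cytb: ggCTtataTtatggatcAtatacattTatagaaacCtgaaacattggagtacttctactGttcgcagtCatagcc
Gm11410: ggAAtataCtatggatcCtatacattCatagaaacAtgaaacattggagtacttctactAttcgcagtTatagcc
The first pair had 0 mismatches in 75 bases and the second had 8.

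A read of the printed mt-Co2 stretch could thus not tell it from Gm28661, while a read of the printed mt-Cytb stretch could tell it from Gm11410. The reads came in pairs, and the other read of a pair was not part of the window search. Between 28.8% and 33.9% of the counts listed for each library stood in the line for more than 1 alignment, and these carry no gene in the files. For mt-Atp8 no window was found in another annotated transcript. Sequence outside annotated transcripts was not searched, which includes the stretch between the copies of mt-Co2 and mt-Atp6 on chromosome 1. mt-Atp8 is only 204 bases long and shares its last bases with mt-Atp6 (chrM:7766-7969 and chrM:7927-8607). The part of any of these features in the low counts was not tested, and the values of the 6 low genes are given as uncertain throughout.

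**Figure D1:**
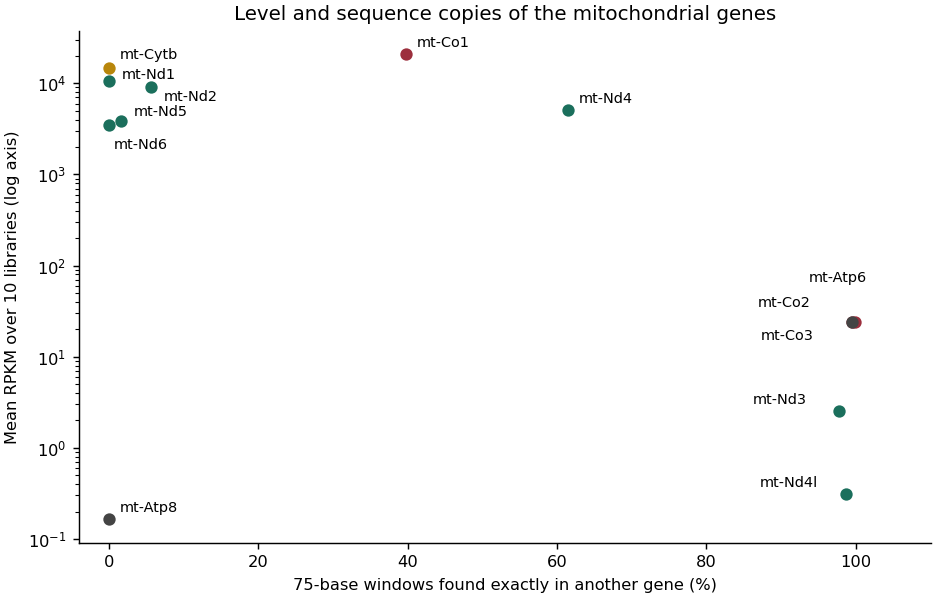
Mean level of each of the 13 mitochondrial genes in RPKM over the 10 libraries (vertical log axis) against the percent of its 75-base windows found exactly in the transcript of another gene (horizontal axis), in green for complex I, yellow for complex III, red for complex IV and grey for the ATP synthase; the points of mt-Co2, mt-Co3 and mt-Atp6 lie on top of each other. The 5 genes at 97.8% or more lie at or below 24.1 RPKM, the 7 genes at or below 61.5% that carry the counts lie at or above 3483 RPKM, and mt-Atp8 is low with no window found in another annotated transcript.

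Nuclear subunit genes are known to share binding sites for a few factors, above all NRF1, GABP, YY1 and the oestrogen-related receptors (ERR), which work with the coactivator PGC-1. RefSeq promoter windows (GRCm38.p6, from 250 bases before to 50 bases after the start) were matched for 51 of the 65 nuclear members and searched on both strands for one exact word each. The NRF1 word GCGCATGC lay in the windows of 7 members (13.7%) and of 3.05% of all 27025 genes with a window. The YY1 word AAGATGGC also lay in 7 (13.7%), against 3.19%. The GABP word CCGGAAGT lay in 4 (7.84%), against 4.31%, and the ERR word CAAGGTCA in 2 (3.92%), against 1.76%. At least 1 word lay in 19 members (37.3%) and in 11.6% of all genes. The NRF1 word was in the windows of Uqcr11, Cox6a1, Ndufa11, Ndufa6, Ndufa8, Sdhb and Uqcrc1, so that it reached complexes I to IV. The YY1 word was in those of 7 complex I genes, Ndufa3, Ndufa9, Ndufb8, Ndufc1, Ndufs4, Ndufs6 and Ndufs7.

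The windows of 3 members are printed, chosen after the values were seen as members of different complexes with an NRF1 or YY1 word and a small p-value in the diet comparison, and that of Uqcr11 as the only one with words for 2 factors. Capitals mark the words, and in Uqcrc1 they run over 10 bases because the word and its reverse complement overlap. Uqcrc1 is at chr9:108936398-108936697 on the plus strand, Sdhb at chr4:140961021-140961320 on the plus strand, Ndufa3 at chr7:3617123-3617422 on the plus strand and Uqcr11 at chr10:80406772-80407071 on the minus strand.
Uqcrc1: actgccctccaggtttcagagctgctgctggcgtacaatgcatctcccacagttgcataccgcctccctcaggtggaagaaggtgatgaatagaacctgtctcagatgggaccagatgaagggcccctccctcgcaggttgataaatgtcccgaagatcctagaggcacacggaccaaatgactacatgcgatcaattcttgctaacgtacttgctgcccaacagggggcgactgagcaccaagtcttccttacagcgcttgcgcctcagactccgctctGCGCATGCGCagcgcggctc
Sdhb: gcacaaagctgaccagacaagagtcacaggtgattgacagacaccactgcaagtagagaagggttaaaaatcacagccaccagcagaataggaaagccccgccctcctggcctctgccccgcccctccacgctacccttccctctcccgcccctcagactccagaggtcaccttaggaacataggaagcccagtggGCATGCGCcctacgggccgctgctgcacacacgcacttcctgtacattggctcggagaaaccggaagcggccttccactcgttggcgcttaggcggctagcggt
Ndufa3: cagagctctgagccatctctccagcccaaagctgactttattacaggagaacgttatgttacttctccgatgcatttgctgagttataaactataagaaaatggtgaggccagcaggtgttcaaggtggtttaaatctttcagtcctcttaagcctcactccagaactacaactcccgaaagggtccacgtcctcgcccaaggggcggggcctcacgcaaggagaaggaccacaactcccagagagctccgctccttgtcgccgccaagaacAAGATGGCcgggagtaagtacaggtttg
Uqcr11: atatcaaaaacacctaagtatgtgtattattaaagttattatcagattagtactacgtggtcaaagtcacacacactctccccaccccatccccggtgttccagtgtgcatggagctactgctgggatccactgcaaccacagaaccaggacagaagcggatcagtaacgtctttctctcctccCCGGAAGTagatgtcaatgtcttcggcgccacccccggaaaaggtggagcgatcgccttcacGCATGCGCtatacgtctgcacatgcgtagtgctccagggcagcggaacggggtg
A match is a description of these letters only, and no binding was measured.

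The 13 mitochondrial genes took a larger share of the gene counts on average in the HFA libraries. The share was 6.7, 5.88, 7.18, 7.71 and 8.56% in CFA 1 to 5, a mean of 7.2 ± 1.01% (SD, n = 5). It was 8.05, 8.68, 9.1, 12.4 and 8.24% in HFA 1 to 5, a mean of 9.29 ± 1.77% (SD, n = 5). The groups overlapped, since CFA 5 lay above HFA 1 and HFA 5, but CFA 1 to 4 lay below every HFA library. HFA 4 was the highest library by far. The difference of the means was 2.08 percentage points, and 1.31 without HFA 4. It was 1.36 without mt-Co1, a setting added after the values were seen. With all counts of the files, summary lines included, as the denominator it was 1.12. Counting error alone gives 95% Wilson intervals of at most 0.0407 percentage points in width, well within the spread between libraries. The counts carry no molecular identifiers, so such intervals cover counting error only.

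The 65 nuclear genes together took far fewer counts. Their share was 0.729, 0.842, 0.804, 0.9 and 1.04% of gene counts in CFA 1 to 5 and 0.958, 0.816, 1.02, 1.36 and 0.88% in HFA 1 to 5, with means of 0.863 ± 0.115% and 1.01 ± 0.21% (SD, n = 5 each). Here only HFA 4 lay above every CFA library, and HFA 2 lay below CFA 2, CFA 4 and CFA 5. The difference of the means was 0.143 percentage points, smaller than the SD among the HFA libraries.

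The ratio of mitochondrial to nuclear counts, which no scaling between libraries enters, was 9.18, 6.98, 8.93, 8.57 and 8.25 in CFA 1 to 5 and 8.4, 10.6, 8.93, 9.13 and 9.36 in HFA 1 to 5. On the log2 scale the means were 3.06 ± 0.155 in CFA and 3.21 ± 0.126 in HFA (SD, n = 5 each), a difference of 0.15 that was about as large as the SD in either group. CFA 2 had the lowest ratio and HFA 2 the highest, and without CFA 2 the difference was 0.09. HFA 4, the highest library for both sets of genes, lay within the range of the CFA libraries in this ratio.

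**Figure D2:**
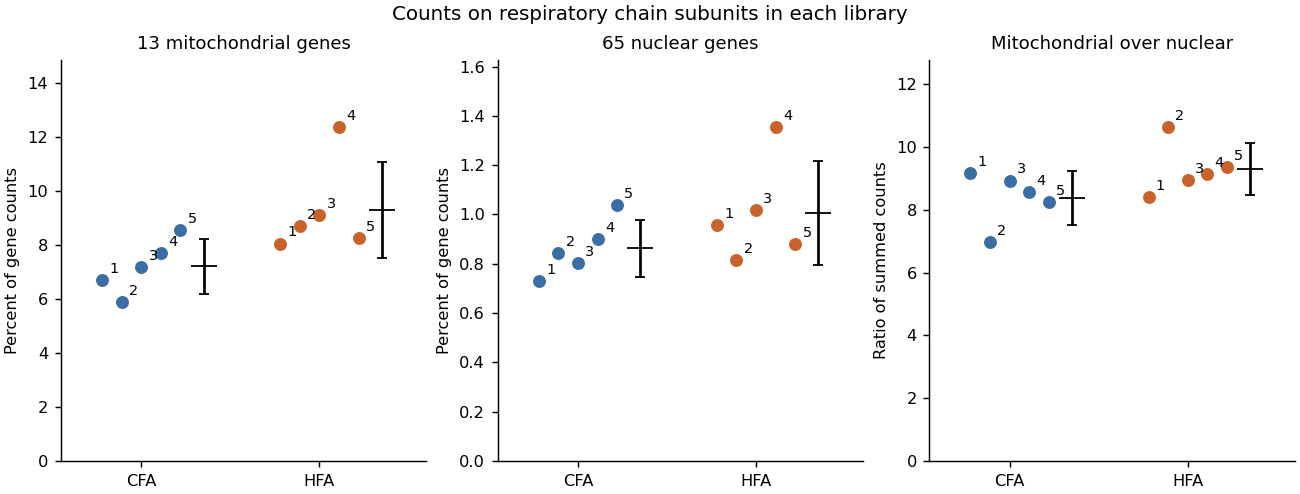
Percent of gene counts on the 13 mitochondrial genes (left) and the 65 nuclear genes (centre), and the ratio of the summed counts (right), with 1 point per library labelled by its replicate number and the mean ± SD of each diet (n = 5) in black. HFA 4 lies highest in the left and centre panels at 12.4% and 1.36%, and HFA 2 lies highest in the right panel at 10.6.

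Does a higher folic acid intake leave the expression of respiratory chain genes changed weeks later? Of the 78 genes, 74 had enough counts to be tested, 63 nuclear and 11 mitochondrial. mt-Nd4l, mt-Atp8, Cox7b2 and Cox8c did not pass the filter on low counts. No member passed the test of HFA against CFA (edgeR quasi-likelihood test, Benjamini-Hochberg adjustment over 15610 genes, threshold 0.05), and the adjusted p-values of the members ran from 0.648 to 0.963. The same fit called 0 of all 15610 genes (0%). At an unadjusted p under 0.05, 5 members were higher and 1 was lower in HFA, against 3.87% of all tested genes higher and 3.49% lower. With upper-quartile scaling, the unadjusted split over all genes was 352 higher to 740 lower, where it was 604 to 545 with TMM.

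Most members were on the same side. The log2 fold change, HFA minus CFA, was above 0 for 60 of the 63 nuclear genes and for 10 of the 11 mitochondrial genes, against 60.1% of all tested genes. The median was 0.35 for the nuclear genes and 0.58 for the mitochondrial ones, beside 0.06 over all genes. These 74 values come from the same 10 libraries and are not 74 independent observations. Without HFA 4 the nuclear median was 0.16, with 54 of 63 above 0, and the mitochondrial median 0.34. HFA 4 was the highest library for 58 of the 65 nuclear members, so smaller values without it mostly follow from that. Of the 60 nuclear genes above 0, 59 had a smaller log2 fold change without HFA 4. It was more than 1.5 times smaller, or changed sign, in 56 of them and in 6 of the 10 mitochondrial genes. Without CFA 1 the nuclear median was 0.22.

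By complex, the nuclear medians were 0.37 for complex I, with 34 of 35 genes above 0, 0.44 for complex II, with 4 of 4, 0.38 for complex III, with 8 of 8, and 0.24 for complex IV, with 14 of 16. The ranges of the complexes overlapped widely. In 1 of the 74 genes all HFA libraries lay above all CFA libraries, and in 0 did they all lie below, against 0.75% and 0.243% of all tested genes.

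**Figure D3:**
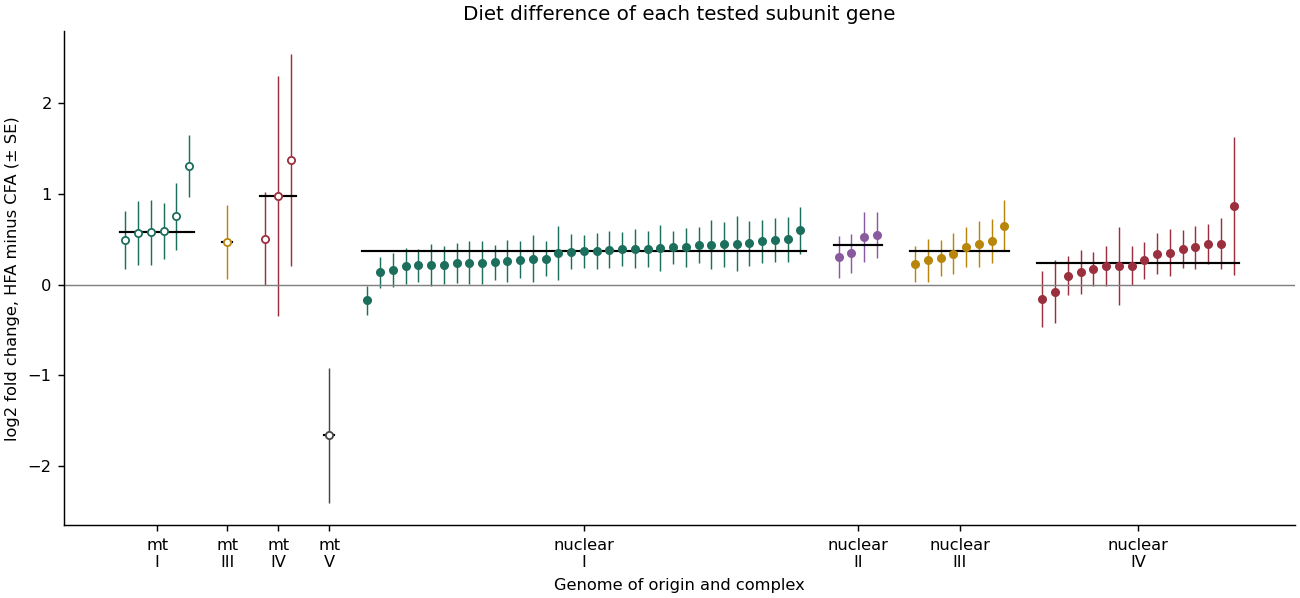
Log2 fold change of HFA minus CFA (edgeR) with its standard error for each of the 74 tested genes, grouped by genome of origin and complex and sorted within a group, with open circles for mitochondrial and filled circles for nuclear genes and a black line at each group's median. Nearly all points lie above 0, from -1.66 for mt-Atp6 to 1.38 for mt-Co2, with the longest error bars on the mitochondrial genes of few counts.

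Among the mitochondrial genes of complex I, the 5 with high counts behaved alike. mt-Nd1, a core membrane subunit, was at 6983, 5804, 8061, 9009 and 10998 CPM in CFA 1 to 5 and 10366, 11505, 12160.3, 17275 and 9367 CPM in HFA 1 to 5, a log2 fold change of 0.57 ± 0.36 (SE) with adjusted p = 0.728 (edgeR). CFA 1 to 3 were low and HFA 4 high, and CFA 5 lay above HFA 1 and HFA 5. mt-Nd5, one of the proton-pumping subunits, was at 4365, 3021, 5369, 6459 and 6902 CPM in CFA 1 to 5 and 7579, 8621, 9311, 13114 and 5386 CPM in HFA 1 to 5, with a log2 fold change of 0.75 ± 0.37 (SE) and adjusted p = 0.678. It was the member with the largest difference among the 7 genes with high counts, and its groups still overlapped at CFA 4, CFA 5 and HFA 5.

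The other pumping subunits mt-Nd2 and mt-Nd4 had log2 fold changes of 0.58 ± 0.36 (SE) and 0.49 ± 0.32 (SE). mt-Nd6, the only one of the 13 encoded on the light strand, ran from 861 to 1914 CPM in CFA and from 1633 to 3598 CPM in HFA. Its log2 fold change was 0.60 ± 0.31 (SE). Its strand matters for the reading, since the library kit does not mark strand and antisense RNA from the opposite genes would count alike. In all 7 genes with high counts CFA 2 was the lowest library and HFA 4 the highest.

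mt-Nd3, a small subunit near the ubiquinone site, was the 1 member whose groups did not overlap. It had 0.342, 0.547, 0.259, 0.792 and 0.595 CPM in CFA 1 to 5 and 1.44, 0.86, 1.41, 1.09 and 1.52 CPM in HFA 1 to 5, a log2 fold change of 1.31 ± 0.34 (SE) with unadjusted p = 0.00289 and adjusted p = 0.648 (edgeR). These values rest on 102 counts in all 10 libraries, and 97.8% of its windows have an exact copy, so both its level and the separation of the groups are uncertain. mt-Nd4l had 11 counts in all and was not tested.

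mt-Cytb, the only mitochondrial subunit of complex III and a part of its catalytic core, was at 11869.6, 10534, 14846, 16020.5 and 17377 CPM in CFA 1 to 5 and 16392, 17412, 19946, 28935 and 15423 CPM in HFA 1 to 5. Its log2 fold change of 0.47 ± 0.41 (SE) was the smallest among the 7 genes with high counts, with adjusted p = 0.8 (edgeR). mt-Co1, the subunit of complex IV that reduces oxygen, was the most abundant member, at 23043, 19929, 25594, 30259.6 and 33329 CPM in CFA 1 to 5 and 31760.1, 33041, 35532, 58219.9 and 29351 CPM in HFA 1 to 5. Its log2 fold change was 0.51 ± 0.51 (SE), no larger than its standard error. mt-Co1 alone made up 35.98% to 40.2% of the mitochondrial counts, and this share was steady from library to library.

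The remaining subunits of complex IV and the ATP synthase jumped between libraries within both diets. mt-Co2, which takes up electrons from cytochrome c, was at 1.1, 1.2, 27.8, 13.7 and 1.93 CPM in CFA 1 to 5 and 1.99, 1.2, 14.3, 54.2 and 47.3 CPM in HFA 1 to 5. mt-Co3 was at 3.08, 2.41, 3.76, 49.1 and 4.91 CPM in CFA 1 to 5 and 3.53, 2.58, 2.97, 113 and 2.86 CPM in HFA 1 to 5, with CFA 4 and HFA 4 far above all others. mt-Atp6, the proton channel subunit, was at 3.7, 42.3, 9.981, 60.2 and 7.81 CPM in CFA 1 to 5 and 4.09, 4.21, 5.23, 12.1 and 13.2 CPM in HFA 1 to 5, with CFA 2 and CFA 4 above all others. It was the only mitochondrial gene with a negative log2 fold change, -1.66 ± 0.74 (SE), with unadjusted p = 0.0483 and adjusted p = 0.67 (edgeR). The high libraries differed from gene to gene. The chromosome 1 copies jumped as well, from 4.27 to 137 CPM for Gm28437, the copy of mt-Co3, and from 1.77 to 105 CPM for Gm10925, the copy of mt-Atp6. Both copies were highest in HFA 4, while mt-Atp6 itself was highest in CFA 4. Gm28661, the copy of mt-Co2, was at 24.5, 2.95, 6.42, 15.1 and 27.7 CPM in CFA 1 to 5 and 4.53, 3.7, 3.68, 7.38 and 3.68 CPM in HFA 1 to 5. It was highest in CFA 5 and CFA 1, where mt-Co2 was low. Its log2 fold change was -1.74 ± 0.54 (SE) with unadjusted p = 0.0091 and adjusted p = 0.648 (edgeR), against 1.38 ± 1.17 (SE) for mt-Co2. mt-Atp8 had 5 counts in all 10 libraries.

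The 7 nuclear core subunits of complex I, which hold the flavin and the iron-sulphur clusters, had log2 fold changes from 0.37 to 0.60 with a median of 0.44. The 28 accessory subunits, which surround the core, had a median of 0.29, and their difference from the core was not tested. Ndufv1, the NADH-binding flavoprotein (chr19:4007384-4012806), was at 140.1, 136, 169.9, 217 and 253 CPM in CFA 1 to 5 and 266, 209.8, 298, 428 and 187 CPM in HFA 1 to 5. HFA 4 was the highest and CFA 2 the lowest library, and HFA 2 and HFA 5 lay within the range of CFA. Its log2 fold change was 0.60 ± 0.26 (SE) with unadjusted p = 0.0413 and adjusted p = 0.667 (edgeR).

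Ndufs1, the largest iron-sulphur subunit (chr1:63143596-63176833), was at 145, 136, 212, 229 and 255 CPM in CFA 1 to 5 and 255, 235, 260.3, 403 and 176 CPM in HFA 1 to 5, a log2 fold change of 0.44 ± 0.25 (SE). Here only HFA 3 and HFA 4 lay above the CFA range, and HFA 1, HFA 2 and HFA 5 lay within it. Ndufv2, which carries an iron-sulphur cluster beside Ndufv1, had a log2 fold change of 0.37 ± 0.20 (SE), and the ubiquinone-side subunits Ndufs7 and Ndufs8 had 0.44 ± 0.27 (SE) and 0.40 ± 0.20 (SE). Ndufs3 had 0.40 ± 0.19 (SE) from a low level of 9.84 RPKM, and 72.8% of its windows lie with at most 2 mismatches in another gene's transcript, mainly the pseudogene Gm12251, so its level is uncertain.

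Of the accessory subunits of complex I, Ndufb9, Ndufa1 and Ndufa2 had the highest levels per length, with 229.7, 174 and 164 RPKM over all libraries. Ndufb2 and Ndufb4 had the lowest, with 1.59 and 1.76 RPKM. Ndufb4 has exact copies for 35.2% of its windows, so its level is uncertain. Ndufb2 had a mean of 8.97 CPM over 5628 bases of annotated exons. Ndufb2 was the 1 nuclear gene of complex I with a negative log2 fold change, -0.17 ± 0.16 (SE). Ndufa3 and Ndufv3 were the accessory subunits with the smallest p-values. Ndufa3 was at 73.2, 76.0, 68.3, 88.2 and 107 CPM in CFA 1 to 5 and 104, 90.6, 128, 144 and 82.1 CPM in HFA 1 to 5, a log2 fold change of 0.41 ± 0.18 (SE) with unadjusted p = 0.0485 (edgeR). Ndufv3 ranged from 71.7 to 110.1 CPM in CFA and from 93.0 to 177 CPM in HFA. Its log2 fold change was 0.44 ± 0.20 (SE) with unadjusted p = 0.0493. Both overlapped between diets, and both had adjusted p = 0.67.

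All 4 genes of complex II, which links the citrate cycle to the chain, were higher in HFA on average. Sdha, the flavoprotein that oxidises succinate (chr13:74322254-74350280), was at 461, 502, 669, 812 and 899 CPM in CFA 1 to 5 and 880.4, 732, 1009.6, 1517 and 682 CPM in HFA 1 to 5, a log2 fold change of 0.53 ± 0.28 (SE). Sdhb, the iron-sulphur subunit, was at 152, 157, 191, 237 and 278 CPM in CFA 1 to 5 and 268, 247, 308, 464 and 194 CPM in HFA 1 to 5, a log2 fold change of 0.54 ± 0.25 (SE) with unadjusted p = 0.0571 and adjusted p = 0.672 (edgeR). The order of the libraries was alike in both genes, with CFA 1 and CFA 2 lowest and HFA 4 highest. The membrane anchors Sdhc and Sdhd had log2 fold changes of 0.31 ± 0.23 (SE) and 0.35 ± 0.21 (SE). Without HFA 4 the values were 0.30, 0.32, 0.12 and 0.16 for Sdha to Sdhd. Per length Sdhd and Sdha lay close together at 200.1 and 198 RPKM, followed by Sdhb at 112 and Sdhc at 63.3 RPKM.

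In complex III, Uqcrc1, a core protein of the matrix side (chr9:108936633-108949623), was the nuclear member with the smallest p. It was at 199, 185, 243, 308 and 386 CPM in CFA 1 to 5 and 393, 337, 437, 648 and 260.2 CPM in HFA 1 to 5. HFA 1, 3 and 4 lay above all CFA libraries, while HFA 2 and HFA 5 lay among them. The log2 fold change was 0.65 ± 0.28 (SE) with unadjusted p = 0.0405 and adjusted p = 0.665 (edgeR). Uqcrfs1, the Rieske iron-sulphur protein, was at 175, 194, 224, 257 and 314 CPM in CFA 1 to 5 and 284, 238, 338, 512 and 258 CPM in HFA 1 to 5, a log2 fold change of 0.49 ± 0.24 (SE). Uqcr10, a small accessory subunit, had the highest level per length at 293 RPKM, ahead of Uqcrfs1 at 205 and the hinge protein Uqcrh at 202 RPKM. Uqcrb had the lowest at 67.8 RPKM and is uncertain because 56.8% of its windows lie with at most 2 mismatches in another transcript. The smallest difference of the complex was that of Uqcrh, 0.23 ± 0.20 (SE), which was 0.033 without HFA 4. Uqcrh reached 407 CPM in HFA 4 and no more than 251 CPM in the other HFA libraries.

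Per length of all annotated exons, complex IV had the most abundant nuclear members, the accessory subunit Cox6b1 at 418 RPKM, Cox8a at 415 RPKM and Cox6a1 at 345 RPKM. Their log2 fold changes of 0.27 ± 0.20 (SE), 0.14 ± 0.24 (SE) and 0.35 ± 0.26 (SE) were of the same order as their standard errors, and without HFA 4 they were 0.079, -0.13 and 0.11. Cox8a was the least regular of them, with 220.2, 247, 229.9, 280.4 and 246 CPM in CFA 1 to 5 and 238, 157, 228, 452 and 269.6 CPM in HFA 1 to 5, so that HFA 2 was the lowest of all libraries and HFA 4 the highest. Ndufa4, first assigned to complex I and later placed in complex IV, was at 232, 269.7, 250.2, 294 and 327 CPM in CFA 1 to 5 and 326, 287, 345, 570.4 and 274 CPM in HFA 1 to 5, a log2 fold change of 0.39 ± 0.21 (SE).

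Several subunits of complex IV exist as a pair of isoforms made in different tissues, and the pairs were compared per length within each library. Cox6a2, the heart and muscle form of Cox6a1 (chr7:128205435-128206387), was at 92.3, 39.5, 83.2, 166 and 202 CPM in CFA 1 to 5 and 231, 281, 241, 305 and 5.52 CPM in HFA 1 to 5. It made up 16.5% to 45.5% of the pair in CFA and 2.18% to 68.4% in HFA. HFA 5 was the low library and HFA 2 that with the highest share. The log2 fold change of 0.86 ± 0.76 (SE) with adjusted p = 0.804 (edgeR) had the largest standard error among the nuclear genes. No other nuclear member varied so much, the highest library being 55.3 times the lowest against a median of 2.47 times over the 63 tested nuclear genes.

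The level of Cox6a2 ran with the muscle markers. The 12 skeletal muscle markers summed to 20950.0, 8402, 25237, 39554 and 48703 CPM in CFA 1 to 5 and 53824, 60227, 48832, 64569 and 864 CPM in HFA 1 to 5, so that HFA 5 and CFA 2 were lowest in both. Ckm, the muscle creatine kinase, was at 1712, 717, 1991, 3225 and 3851 CPM in CFA 1 to 5 and 4334, 4807, 4070.2, 5261 and 65.9 CPM in HFA 1 to 5. The part of muscle in the level of Cox6a2 or of the other members was not tested beyond a fit with the muscle markers as a term, in which the nuclear median was 0.34.

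The other second isoforms were scarce. Cox4i2, the lung form of Cox4i1, made up 0.472% to 3.11% of its pair over all libraries where Cox4i1 was at 265 RPKM, with the highest value in HFA 5. Cox6b2, the testis form of Cox6b1, made up at most 0.704%, and Ndufa4l2, a hypoxia-induced relative of Ndufa4, at most 2.39%. Cox8c, the testis form of Cox8a, had 0 counts in all 10 libraries, which allows up to 0.424 CPM in HFA 3, the shallowest library, at a limit of 3 counts. Cox6b2 and Ndufa4l2 were the nuclear members of complex IV with negative log2 fold changes, -0.08 ± 0.35 (SE) and -0.16 ± 0.31 (SE), both within their standard errors.

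Cox7a2l, a relative of Cox7a2 with 16.5% of its windows in the pseudogene Gm6969 at up to 2 mismatches, did not follow the other genes. It was at 119, 143, 91.7, 107 and 119 CPM in CFA 1 to 5 and 106, 109, 112, 136 and 191 CPM in HFA 1 to 5, with HFA 5 and CFA 2 highest, where most members were low. Cox7a2 was at 120.0, 143, 160.0, 167 and 182 CPM in CFA 1 to 5 and 151, 119, 161, 284 and 175 CPM in HFA 1 to 5, with HFA 4 highest. Cox7a2l made up 23.4% to 41.2% of the pair over all libraries per length. The log2 fold changes between diets were 0.18 ± 0.19 (SE) and 0.20 ± 0.22 (SE), of which neither exceeded its standard error.

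Within each diet the libraries also differed in respiratory chain RNA, and the nuclear members moved together. HFA 4 was the highest of the 10 libraries for 58 of the 65 nuclear members and all 7 mitochondrial genes with high counts, against 18.1% of all tested genes. CFA 1 was the lowest for 35 of the 65, against 5.61% of all tested genes. Relative to each gene's mean over the libraries, on the log2(CPM + 1) scale, the median over the 63 tested nuclear genes was -0.43, -0.33, -0.22, 0.02 and 0.21 in CFA 1 to 5 and 0.13, -0.10, 0.25, 0.77 and -0.22 in HFA 1 to 5. CFA 5 was thus the high library of its diet, above HFA 1, HFA 2 and HFA 5, and HFA 5 and HFA 2 lay below CFA 4. In CFA 5, 59 of the 63 genes were above their mean, and in HFA 5 there were 8.

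**Figure D4:**
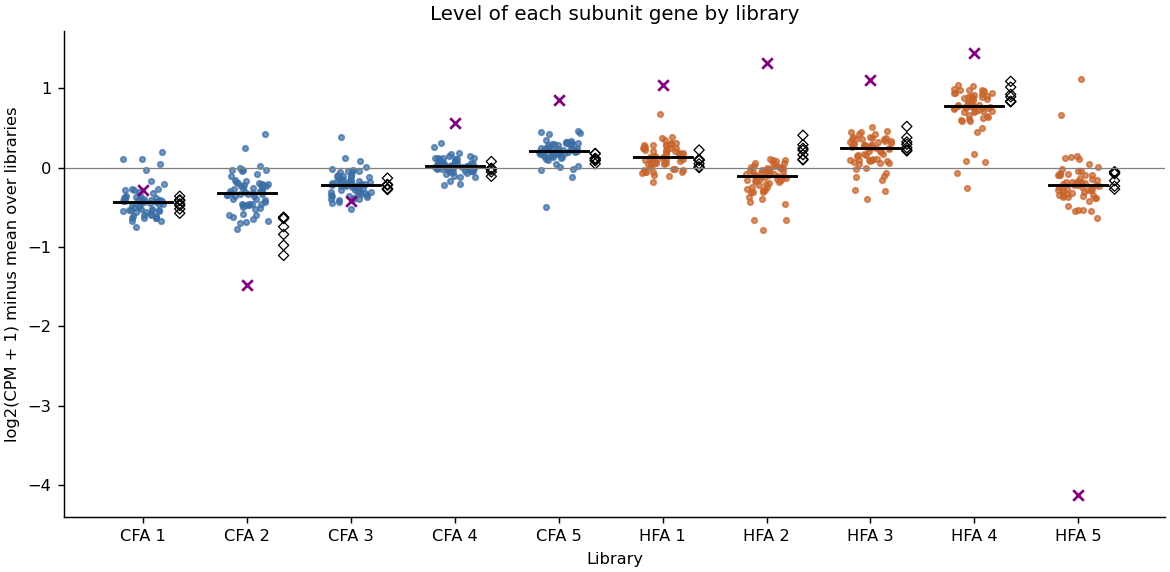
Level of each tested gene in each library as log2(CPM + 1) minus the gene's mean over the 10 libraries, with dots for nuclear genes, crosses for Cox6a2, black lines for the median over the 63 nuclear genes and open diamonds for the 7 mitochondrial genes with high counts. The median line runs from -0.43 in CFA 1 to 0.77 in HFA 4, and Cox6a2 drops to -4.12 in HFA 5.

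The markers of brown and beige fat, fat cells that burn fuel for heat, differed between the libraries in a like way. Over 9 markers they summed to 102, 243, 208, 386 and 722 CPM in CFA 1 to 5 and 569, 216, 1580.3, 2049.8 and 1553 CPM in HFA 1 to 5. HFA 4 was highest and CFA 1 lowest, as for the nuclear members, but HFA 3 and HFA 5 were also high. Ucp1, the uncoupling protein that defines these cells, was at 1.51, 72.5, 34.9, 121 and 296 CPM in CFA 1 to 5 and 217, 5.33, 783, 1028 and 952 CPM in HFA 1 to 5, and no marker of the list was at 0 in any library. Of the 9 markers, Cox7a1 and Cox8b are complex IV subunits that the symbol rule leaves out, and Ppargc1a also stands among the upstream regulators. All 9 markers had positive log2 fold changes, with a median of 1.15, and 0 passed the adjusted threshold. In a fit with the mean of these markers as a term, the diet median was 0.10 for the nuclear genes, with 48 of 63 above 0, and 0.35 for the mitochondrial genes. The term holds subunits of the chain itself and was higher in HFA, so smaller medians are partly built into this fit. The part of brown fat in the diet difference was not tested. The share of counts listed for more than 1 alignment was also at its highest in HFA 4, 33.9%, and its part was not tested.

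**Figure D5:**
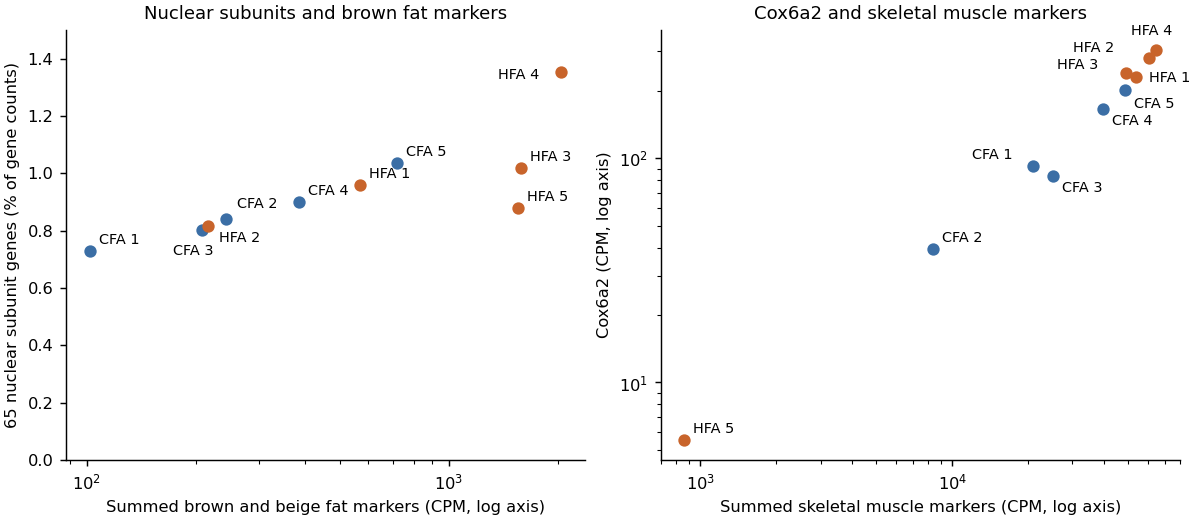
Left, percent of gene counts on the 65 nuclear genes against the summed brown and beige fat markers (CPM, log axis); right, Cox6a2 (CPM, log axis) against the summed skeletal muscle markers (CPM, log axis), 1 point per library coloured by diet. HFA 4 is highest on both axes of the left panel, where HFA 3 and HFA 5 lie to the right of libraries with a like nuclear share, and HFA 5 is lowest on both axes of the right panel.

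A few members were called once the libraries were weighted or left out. With limma voom and quality weights, 8 members passed the adjusted threshold, all higher in HFA, against 6.66% of all genes in that fit. They included mt-Nd3, mt-Nd5, Ndufa13, Ndufa3, Ndufv1, Sdhb and Uqcrc1, and the 8 had log2 fold changes from 0.52 for Ndufa3 to 1.53 for mt-Nd3 and adjusted p-values from 0.0388 to 0.0491. Without CFA 2, CFA 5 and HFA 5, the libraries with high B and T cell markers, 1 member passed, Cox6a2 with a log2 fold change of 1.21 ± 0.24 (SE) and adjusted p = 0.0453 (edgeR), against 2.98% of all genes. That set of 7 libraries lacks HFA 5, the library with the least muscle RNA and the lowest Cox6a2, at 5.52 CPM. It also lacks CFA 5 and CFA 2, the CFA libraries with the highest and the lowest Cox6a2, at 202 and 39.5 CPM. DESeq2 called 0 members and 60 genes in all, the likelihood ratio test of edgeR 0 and 33, and voom without weights 0 and 0.

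Sample titles carry a second digit of unknown meaning, 2 for CFA 1 and 2 and HFA 1 to 3 and 3 for the other libraries, and the diets were also compared within each digit. The nuclear median was 0.47 within digit 2, with 59 of 63 genes above 0, and 0.37 within digit 3, with 60 of 63. The mitochondrial medians were 0.83 and 0.56. No member and no other gene passed the test of the difference between the digits (0% of 15610 genes, edgeR quasi-likelihood test), and 1 member had an unadjusted p under 0.05. Within digit 3 the direction rested on HFA 4, without which only HFA 5 is left in that arm. There the test of the difference called 23 members, against 25.6% of all genes tested, and the medians within digit 3 were -0.23 and -0.08.

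Genes that work beside the chain mostly had positive log2 fold changes too, and none of them passed the adjusted threshold. For comparison with each list here and below, 60.1% of all tested genes were positive. At an unadjusted p under 0.05, 3.87% of all tested genes were higher in HFA and 3.49% lower (edgeR). Of the 15 nuclear ATP synthase genes, 14 had positive log2 fold changes with a median of 0.35, and 0 had an unadjusted p under 0.05. Of 16 citrate cycle genes, 15 were positive with a median of 0.52, and 7 had an unadjusted p under 0.05, all higher in HFA. Among these, the succinyl-CoA ligase subunit Sucla2 had a log2 fold change of 0.71 ± 0.26 (SE) with adjusted p = 0.655 (edgeR). Pdhb, a subunit of pyruvate dehydrogenase, was the 1 gene of that list on the other side, with -0.31 ± 0.27 (SE).

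The assembly factors of the complexes were nearer to all genes. Of 39 tested, 32 were positive with a median of 0.15, and only Foxred1, a complex I assembly factor, had an unadjusted p under 0.05. Of 22 genes of mitochondrial transcription and translation, 18 were positive with a median of 0.19, and Polrmt, the mitochondrial RNA polymerase, and Lrpprc, which stabilises mitochondrial messenger RNA, had an unadjusted p under 0.05. The electron carriers and the subunits outside the symbol rule were positive in 5 of 5. Of these, Cox7a1 and Cox8b, the muscle and brown fat forms of complex IV subunits, had 1.00 ± 0.42 (SE) and 1.15 ± 0.39 (SE), while cytochrome c1, Cyc1, had 0.48 ± 0.27 (SE).

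The upstream regulators were positive in 9 of 9 with a median of 0.39, and 3 had an unadjusted p under 0.05. Ppargc1b, a coactivator of the NRF and ERR factors, was at 4.93, 4.27, 7.45, 10.1 and 11.8 CPM in CFA 1 to 5 and 10.05, 10.4, 22.4, 24.9 and 14.2 CPM in HFA 1 to 5, a log2 fold change of 1.08 ± 0.36 (SE) with unadjusted p = 0.0126 and adjusted p = 0.655 (edgeR). Ppargc1a, its better known relative, had 1.05 ± 0.42 (SE) and the receptor Ppara 1.48 ± 0.46 (SE). The factors whose words were searched in the promoters had smaller differences, 0.04 ± 0.21 (SE) for Nrf1, 0.17 ± 0.11 (SE) for Gabpa, 0.16 ± 0.14 (SE) for Yy1 and 0.39 ± 0.22 (SE) for Esrra.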

How the data were processed

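Total RNA of 10 mammary fat pads was measured by RNA-seq. The authors made libraries with a TruSeq RNA v2 kit, aligned 75 bp paired reads with TopHat2 2.0.14 and Bowtie2 2.2.5 to GRCm38 (mm10) and counted them on Ensembl genes with HTSeq 0.6.1, per the submitters' processing notes and the study's methods. The strand setting of the counting is not given in the sources used here. The deposited files hold raw whole-number counts for 46983 genes and 5 HTSeq summary lines, which stayed out of library sizes. Between 28.8% and 33.9% of the counts in a file stood in the summary line for several alignments, which carries no gene. Genes with near-identical copies can thus be undercounted to an unknown extent. The libraries held 7672199 to 14829291 counts on genes. Samples that the study excluded are not analysed here.

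Symbols, positions and exon lengths came from GENCODE M21 (GRCm38). Diets were compared in R 4.3.3 with edgeR 4.0.16: filterByExpr, TMM scaling, quasi-likelihood test, HFA minus CFA, no covariate, Benjamini-Hochberg adjustment over 15610 genes, threshold 0.05. The study's model also held the cage, which the labels used here do not give. Standard errors are the log2 fold change over the root of F. CPM are counts over the TMM-scaled library size, as edgeR gives them, and RPKM divide mean CPM by the union of exons in kilobases. This union can be far longer than a transcript. It was 1550 bases for Cox4i1 and 1381 for Ndufa4, whose longest coding transcripts have 765 and 610 bases. The order of genes and the isoform shares per length thus depend on the annotation. Shares and ratios of counts have no test. Copies were found with blastn 2.17.0+ in GENCODE M21 transcripts, as 75-base windows with 0 or at most 2 mismatches, and promoter windows are RefSeq's (GRCm38.p6). The fits were tested on simulated counts. The lowest chi-square per gene among 45 pairs of libraries was 14.9, and all libraries were kept as separate.

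The members, related lists, markers, words and tests were chosen with earlier results of these data known. Named genes are all mitochondrial members, the 3 highest and 2 lowest nuclear genes of each complex by RPKM, isoform pairs, nuclear core subunits of complex I, Uqcrfs1, the Sdh genes, the 5 smallest p in each direction and members called in any fit where these were 10 or fewer. Some genes that the rule names are not reported here. Alternatives were RLE and upper-quartile scaling, scaling without mitochondrial genes, other filters, the likelihood ratio test, DESeq2 1.42.0, limma 3.58.1 with voom, marker, title digit and replicate terms, and each library left out.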

Additional observations from a re-analysis of the deposited data

Results flagged for a closer look

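In each diet's 5 libraries, a value was singled out when the gap from the highest or lowest library to its neighbour took up more than 0.71 of the group's range (Dixon's test at 95%). Of 104 groups of values examined, 13 met this. The groups come from the same 5 libraries of each diet and are not independent, so the count cannot be set against a chance rate. In 9 of them the outlying library was HFA 4, as the highest. It held 12.4% of gene counts on the mitochondrial genes, where the next HFA library held 9.1%. mt-Co1 was at 58219.9 CPM with the next at 35532, and mt-Nd6 at 3598 with the next at 1978. Of the nuclear genes, Ndufa1 was at 130.3 CPM (next 74.8), Ndufa4 at 570.4 (next 345), Ndufs3 at 36.1 (next 22.97) and Uqcrh at 407 (next 251). Ndufs3 has near copies and its level is uncertain. HFA 4 was also the highest library for mt-Co3, at 113 CPM against 3.53 for the next, and for mt-Nd4l, at 0.547 against 0.11, both genes of uncertain counts.

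HFA 5 stood out in 3 groups of values. Cox6a2, the muscle isoform, was at 5.52 CPM there with the next lowest HFA library at 231. Cox4i2 was highest there at 6.09 CPM with the next at 2.21, and mt-Atp8 was at 0.0635 CPM where the other HFA libraries had 0 counts. In CFA, mt-Co3 was at 49.1 CPM in CFA 4 with the next at 4.91. The cause of these values was not tested.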

How the results depend on the processing

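The count of members called stayed at 0 in every alternative except 2. It was 8 with limma voom and quality weights and 1 without CFA 2, CFA 5 and HFA 5, a set of libraries chosen after the data were seen, as was the term for muscle markers. Leaving out 1 library at a time kept it at 0. Members at an unadjusted p under 0.05 varied more, from 6 of 74 in the main fit (edgeR). They were 1 without HFA 4, 24 without CFA 5, 26 without HFA 5, 28 with the title digit term and 29 with the muscle term. With limma voom and quality weights they were 51, where 2490 of all 15610 genes were higher and 2215 lower at that threshold, against 604 and 545 in the main fit. The median of the nuclear genes stayed above 0 in all alternatives, between 0.16 and 0.46 with 1 library left out, and that of the mitochondrial genes between 0.34 and 0.70. The difference in the mitochondrial share stayed between 1.31 and 2.42 percentage points and the log2 ratio between 0.09 and 0.19. Without CFA 2, CFA 5 and HFA 5 the ratio's difference was 0.06. With all lines of the files as denominator, the difference in share was 1.12 percentage points. HFA 4 gave the low ends of these ranges for both medians and the share, CFA 2 that of the ratio. With brown fat markers as a term, which include the complex IV subunits Cox7a1 and Cox8b, the nuclear median was 0.10.

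In the test between title digits, members called with 1 library left out ran from 0 to 23, the upper value without HFA 4, when 4058 genes in all (25.6%) were called and where an arm holds 1 library that is assumed to vary like the others. Within digit 3 the medians ran from -0.23 to 0.69 for the nuclear and from -0.079 to 0.89 for the mitochondrial genes. Of 46 named genes tested, 11 changed sign in at least 1 alternative. With brown fat markers as a term, Cox4i2 was at -0.12, Cox6a1 was at -0.12, Cox7a2 was at -0.13, Cox8a was at -0.20, Ndufa1 was at -0.066, Ndufa4l2 was at 0.033, Uqcrh was at -0.048, mt-Co2 was at -1.44 and mt-Co3 was at -1.15. With limma voom and quality weights, Cox4i2 was at -0.21, Cox6b2 was at 0.056, Cox7a2l was at -0.013, Cox8a was at -0.025, Ndufa4l2 was at 0.014 and mt-Co3 was at -0.12. Without CFA 2, CFA 5 and HFA 5, Cox4i2 was at -0.29, and with muscle markers as a term, Cox4i2 was at -0.044. With 1 library left out, Cox4i2 ran from -0.44 to 0.40, Cox6b2 ran from -0.26 to 0.054, Cox7a2 ran from -0.029 to 0.32, Cox7a2l ran from -0.046 to 0.24, Cox8a ran from -0.13 to 0.28 and mt-Co3 ran from -2.08 to 2.81. The causes were not tested.

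Same-numbered libraries of the 2 diets (title digits 2 and 3, 4 pairs) correlated in their deviations by 0.298, -0.294, 0.111 and 0.41 and 4 of 8 libraries correlated best with the one of its own number, which does not settle whether the numbers pair the samples. As 1 of the 4 pairs lay below 0.1, they were not treated as pairs. With a replicate block over these 8 libraries, 0 members were called, the nuclear median was 0.37 and Cox4i2 was at -0.042. The same 8 libraries without the block, added after the data were seen, gave 0 and a nuclear median of 0.41. The block changed no call. The common biological coefficient of variation was 0.409, and counting error limits only the members of few counts.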

Other observations

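The 2 mitochondrial ribosomal RNA genes were matched by symbol but are not protein-coding. mt-Rnr1 was at 365, 487, 184, 377 and 482 CPM in CFA 1 to 5 and 482, 437, 823, 1435 and 702 CPM in HFA 1 to 5, and mt-Rnr2 at 540.2, 645, 351, 546 and 753 CPM in CFA 1 to 5 and 731, 770.0, 1395, 3230.1 and 1132 CPM in HFA 1 to 5. HFA 3 and HFA 4 were the highest libraries for both and CFA 3 the lowest. The log2 fold changes were 1.03 ± 0.37 (SE) and 1.36 ± 0.42 (SE), with unadjusted p = 0.0176 and 0.0087 and adjusted p = 0.655 and 0.648 (edgeR).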
